A study of Mus musculus with 19 samples.

Results

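The 13 libraries from transgenic mice, out of 19 libraries in the series, were described along the count of Thy1. They were selected on their group labels and were then put in order by a measured value, the normalized count of Thy1, so the levels of Thy1 are given as a description and were not tested between groups. The tests relate the other genes, and measures of each library, to the Thy1 counts. The values of the other genes did not set the order, although all genes of a library share its size factor. The mice were 7 months old APPPS1-21 animals. Per the study's methods they carry human APP with the Swedish mutation (APPSw) under the Thy1 promoter, among their transgenes. The APP control group (n = 6) received scrambled control oligonucleotides and the APP anti-miR-mix group (n = 7) received a mixture that inhibits 3 microRNAs. Both were given in lipid nanoparticles injected into the dorsal hippocampus, and RNA came from the microdissected CA1 region. The WT control group (n = 6) consisted of littermates without the transgenes, whose titles name the mixture beside the word control and which the study describes as injected with control. It is used here only as a reference. The labels do not say whether a library came from 1 animal, so the p-values measure the spread between these libraries.

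Thy1 encodes a surface glycoprotein of neurons, and its promoter cassette is widely used to drive transgenes in postnatal forebrain neurons. Because such cassettes keep untranslated parts of Thy1, reads of the transgene messages can be counted at Thy1 as well as at the mouse gene itself. In mice of this line amyloid forms early, and microglia and astrocytes around the plaques raise a shared set of genes. Thy1 is also more highly expressed in some neurons and brain regions than in others. In bulk tissue, fewer cells of a type and less RNA per cell cannot be told apart.

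The microRNAs that the mixture targets are shown because they are what separates the treatment groups. The RefSeq mature sequences are written 5′ to 3′ with the seed, bases 2 to 8, in capitals, and no seed is shared among them.
mmu-miR-181a-5p: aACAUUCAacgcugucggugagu
mmu-miR-148a-3p: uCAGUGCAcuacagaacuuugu
mmu-miR-146a-5p: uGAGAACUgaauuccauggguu

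Total counts of the 13 libraries ranged from 24966818 to 37018917, and those of all 19 from 19362343 upwards. CA1 marker genes were present throughout. Mpped1, a gene enriched in CA1, had 9609 to 13397 normalized counts in the transgenic libraries, and Prox1, which marks the granule cells of the dentate gyrus, had 613 to 1737. Xist, made from the inactive X chromosome, had 5.95 to 19.1 normalized counts, while the Y-linked Ddx3y had 749 to 2047. A log2 table that the authors also deposited differed from log2(CPM + 1) by a slope per gene multiplied by a whole number per library. The meaning of that number is not given in the sources used here, and it is called the adjustment number.

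Thy1 (ENSMUSG00000032011, GRCm38 chromosome 9, 44043384 to 44048579) covered a 1.74-fold range among the transgenic libraries. Normalized counts are raw counts divided by median-of-ratios size factors computed over all 19 libraries. APP control 1 to 6 had 62875, 58165, 51851, 58399, 45164 and 36118 normalized counts of Thy1. APP anti-miR-mix 1 to 7 had 50709, 50701, 54141, 53878, 50766, 44865 and 43142. The groups overlapped, and both the highest and the lowest library were APP control. The mean was 52095 ± 9962 (SD, n = 6) in APP control and 49743 ± 4217 (SD, n = 7) in APP anti-miR-mix, with coefficients of variation of 19.1% and 8.48%. WT control libraries lay between 18112 and 20710 with a coefficient of variation of 4.87%, so the lowest transgenic library was 1.74-fold above the highest of them. APP anti-miR-mix 1, 2 and 5, in the middle of the order, differed by only 0.129%, so their ranks rest on very small differences.

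**Figure D1:**
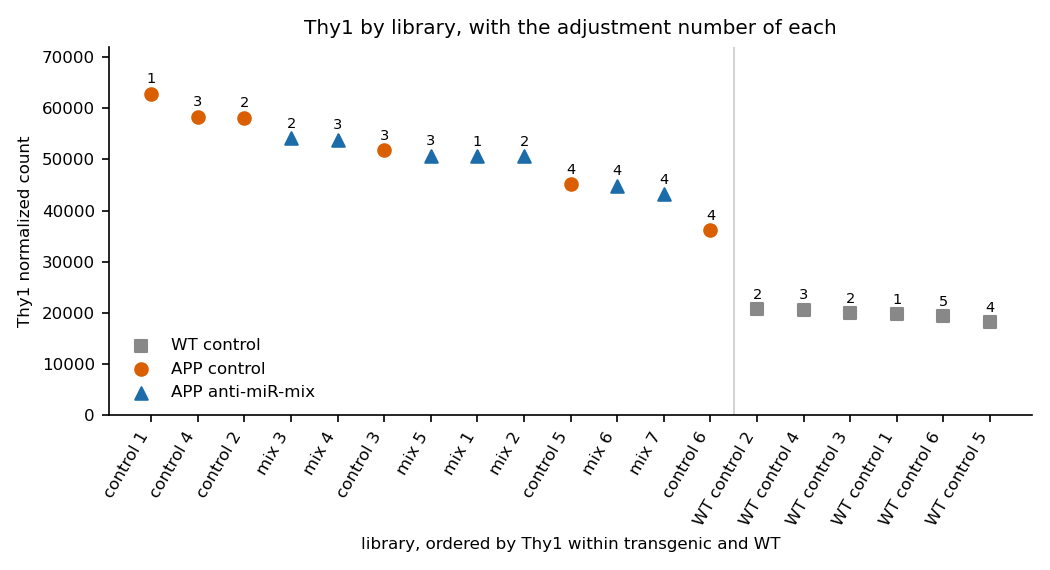
Thy1 normalized count of each library, ordered within the transgenic and the WT control libraries, with the adjustment number written above each point. The 4 transgenic libraries with the number 4 have the 4 lowest Thy1 counts, from 36118 to 45164, and the other 9 start at 50701.

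The order by Thy1 went together with the adjustment number. The 4 transgenic libraries with the number 4 (APP control 5 and 6, APP anti-miR-mix 6 and 7) were the 4 lowest in Thy1, at 36118 to 45164 normalized counts. The 2 libraries with the number 1 had 50709 and 62875, those with the number 2 had 50701 to 58165, and those with the number 3 had 50766 to 58399. Among libraries with the numbers 1 to 3 the Thy1 counts thus overlapped widely. The number correlated with log2 Thy1 over the 13 libraries with Pearson r = -0.719 (permutation test p = 0.00505, adjusted p = 0.0177) and Spearman rho = -0.680 (permutation test p = 0.0132, adjusted p = 0.0837). Without the 2 libraries farthest from the median Thy1 count (APP control 1 and 6), r was -0.603. Within APP control rho was -0.883 and within APP anti-miR-mix it was -0.514.

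A total of 7 such measures per library formed the family over which these p-values were adjusted. The mean GC content of the counted transcripts, a measure added after the data had been seen, ranged from 49.2% to 50.6% and rose with Thy1 (r = 0.732, permutation test p = 0.00366, adjusted p = 0.0177, and r = 0.579 without the 2 farthest libraries). Its rho was 0.632 (permutation test p = 0.0239, adjusted p = 0.0837), with 0.714 within APP control and 0.357 within APP anti-miR-mix. The share of counts in mitochondrial genes, 2.84% to 4.87%, had r = -0.558 (permutation test p = 0.0458, adjusted p = 0.0641) and rho = -0.478 (permutation test p = 0.102, adjusted p = 0.119). Size factor, total count, number of genes detected and the share of counts in the 10 top genes had r between -0.605 and -0.479, all with adjusted permutation test p of 0.0632 or above for r and 0.0877 or above for rho. Within APP control the rho of these measures was -0.829, -0.714, -0.657 and -0.829. Within APP anti-miR-mix it was -0.0357, 0.0357, -0.321 and -0.464.

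In all, 19416 genes reached 5 counts in 50% or more of the 13 libraries. Of these, 147 rose and 127 fell with the order of Thy1 at an adjusted p under 0.05, which is 0.757% and 0.654% of the genes tested. The test was the exact permutation distribution of Spearman's rho, two-sided, with Benjamini-Hochberg adjustment over all these genes. Before adjustment, 2507 genes (12.9%) were higher and 2453 (12.6%) lower with higher Thy1 at p under 0.05. The median rho over all genes was 0.02. The smallest absolute rho called was 0.835 (adjusted p = 0.0485) and the largest one not called was 0.830 (adjusted p = 0.0506). Fitted as a slope on log2 Thy1 with the group as a term, DESeq2 called 1814 genes higher (9.34%) and 1934 lower (9.96%) at an adjusted p under 0.05, and the edgeR quasi-likelihood test called 1042 higher and 1521 lower.

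These counts depended on which libraries and terms were used. Leaving out 1 library at a time moved the 274 adjusted calls of the rank test to between 0 (without APP anti-miR-mix 7) and 766 (without APP anti-miR-mix 1). Without the 2 libraries farthest from the median, APP control 1 and 6, the rank test called 0 genes at the adjusted threshold (2461 at unadjusted p under 0.05) and DESeq2 called 897. With the adjustment number as a factor, DESeq2 called 0 genes and 589 passed at unadjusted p, of which 256 were higher and 333 lower. Within each group alone the exact rank test called 0 genes after adjustment, and before it 1359 genes for APP control and 1459 for APP anti-miR-mix. The smallest p that 6 libraries allow in this exact test is 0.00278, and 7 libraries allow 0.000397. When the 13 libraries were ordered by the adjustment number in place of Thy1, the same test called 2284 genes higher with a higher number (11.8%) and 1922 lower (9.9%). Thy1 and the adjustment number cannot be told apart as the measure that these genes follow.

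The count of App, a gene matched by a transgene, varied with Thy1. App (ENSMUSG00000022892, chromosome 16, 84949685 to 85173766), the mouse counterpart of the human APP transgene, had 67153, 71669 and 80764 normalized counts as lowest, median and highest in APP control and 65318, 69965 and 74914 in APP anti-miR-mix. Both ranges lie above WT control, at 49033 to 54786. Its rho with Thy1 was 0.852 (exact permutation test, adjusted p = 0.0426) and its Pearson r was 0.757 (permutation test p = 0.00294), or 0.665 without the 2 farthest libraries. The 4 libraries with the number 4 were not separated from the other 9 in App, at 67153 to 69424 against 65318 to 80764.

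The total count of App rose less than in proportion to that of Thy1. Both totals include the mouse gene, at 49033 to 54786 for App and 18112 to 20710 for Thy1 in WT control. The slope therefore cannot show whether reads of the transgenes change in proportion. Per doubling of Thy1, App rose by 0.29 (SE 0.09, DESeq2 adjusted p = 0.0142) on the log2 scale. Of the 14 genes listed for APP processing, 4 were higher and 1 lower at unadjusted p under 0.05, with a median rho of 0.11. Ncstn, a gamma-secretase subunit, had rho 0.681 (exact permutation test, adjusted p = 0.122), and Aplp1, an App relative, had 0.747 (exact permutation test, adjusted p = 0.0872). Bace2, a relative of beta-secretase, was the member that was lower, at rho -0.665 (exact permutation test, adjusted p = 0.129), from counts of 40.5 to 138. Bace1, the main beta-secretase of neurons, had rho -0.148 and its counts stayed between 3674 and 4270. Of 12 genes within 250 kb of Thy1 that passed the filter, 2 were higher (Rnf26 and Nlrx1) and none was lower at unadjusted p under 0.05, with a median rho of 0.17, so neighbours of Thy1 on chromosome 9 had shares near those of all genes.

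Microglial and amyloid response genes were higher in libraries with more Thy1. Of 32 amyloid response genes, 18 were higher and 0 lower at unadjusted p under 0.05, with a median rho of 0.59, and 0 passed after adjustment over all genes. DESeq2 called 20 of them higher. Of 10 homeostatic microglia genes, 6 were higher and 0 lower, with a median rho of 0.76. Csf1r, the receptor that microglia need to survive, had 5451, 9203 and 10330 normalized counts as lowest, median and highest in APP control and 6809, 8681 and 9539 in APP anti-miR-mix. Its rho was 0.841 (exact permutation test, adjusted p = 0.0471) with r = 0.849 (permutation test p = 0.00022), or 0.836 without the 2 farthest libraries. The lowest values were APP control 5 and 6, at 5499 and 5451, next to the WT control range of 3696 to 5346.

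Trem2, the microglial lipid receptor, and its signalling adaptor Tyrobp showed the same pair of low libraries. Trem2 had 1189 and 1471 normalized counts in APP control 5 and 6, against 3497 to 4874 in the other 4 APP control libraries and 2426 to 4511 in APP anti-miR-mix. WT control libraries had 469 to 1011. Its rho was 0.786 (exact permutation test, adjusted p = 0.0681) and its r was 0.774 (permutation test p = 0.00221). The slope per doubling of Thy1 was 2.28 on the log2 scale (SE 0.52, DESeq2 adjusted p = 0.000470). Tyrobp had rho 0.797 (exact permutation test, adjusted p = 0.0630) and a slope of 2.23 (SE 0.40, DESeq2 adjusted p = 4.48e-06). Within APP anti-miR-mix alone, rho was 0.714 for Trem2 and 0.750 for Tyrobp.

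Astrocytic members of the amyloid response moved likewise. Gfap, the intermediate filament of reactive astrocytes, had 29043 to 73627 normalized counts in APP control and 34814 to 63444 in APP anti-miR-mix, with rho 0.769 (exact permutation test, adjusted p = 0.0754) and a slope of 1.64 (SE 0.35, DESeq2 adjusted p = 0.000166). Apoe, the main lipid carrier made by astrocytes and by plaque-associated microglia, had rho 0.621 (exact permutation test, adjusted p = 0.154). Its slope was 0.92 (SE 0.23, DESeq2 adjusted p = 0.00139), and its rho was 0.391 without APP control 5 and 6. The general astrocyte list did not follow. Of its 10 genes 0 were higher and 1 was lower, with a median rho of -0.34. MHC and interferon genes had 0 and 1 of 9 and 10 members higher, and 0 lower in both.

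Leaving out APP control 5 and 6, an alternative chosen after seeing the data, reduced the amyloid response list to 8 genes higher of 32 and left homeostatic microglia at 6 of 10. In that setting 7.35% of all genes were higher and 6.41% lower at unadjusted p under 0.05. The median rho of the lists was then 0.41 and 0.69. With the means of each adjustment number removed, the medians were 0.22 and 0.32. The amyloid response score, the mean log2(normalized count + 1) over the list, was 10.45 to 11.75 in APP control, 10.9 to 11.8 in APP anti-miR-mix and 9.33 to 10.5 in WT control.

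**Figure D2:**
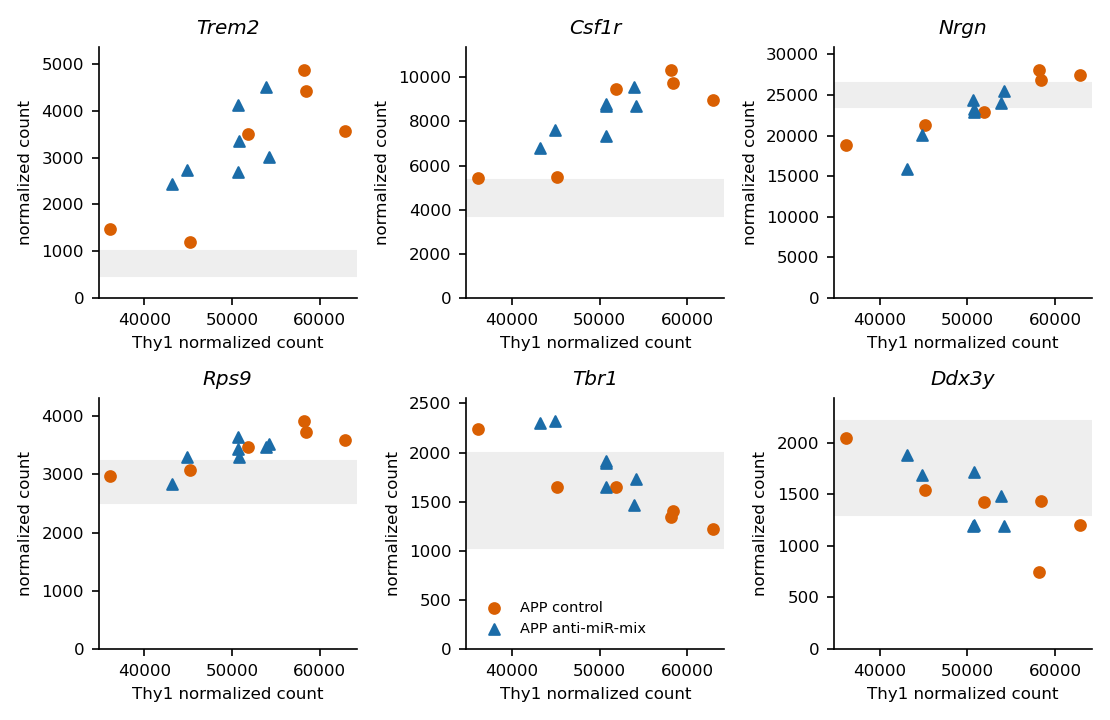
Normalized counts of 6 genes against the Thy1 normalized count in the 13 transgenic libraries, with the range of the 6 WT control libraries as a grey band. Trem2 and Csf1r are lowest in APP control 5 and 6, Nrgn and Rps9 rise with Thy1, and Tbr1 and Ddx3y fall.

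Genes of excitatory synapses also followed Thy1. Of 12 listed, 7 were higher and 0 lower at unadjusted p under 0.05, with a median rho of 0.68, and 3 passed after adjustment. Nrgn, a calmodulin-binding protein of dendritic spines, had 18837, 24877 and 28106 normalized counts as lowest, median and highest in APP control and 15849, 23306 and 25547 in APP anti-miR-mix. Its rho was 0.918 (exact permutation test, adjusted p = 0.0193) and r was 0.870 (permutation test p = 0.00021), or 0.919 without the 2 farthest libraries. All 4 libraries with the number 4 were below the other 9, at 15849 to 21288 against 22913 to 28106. Those 4 are also the lowest in Thy1, so this separation largely comes with a rho of that size. Dlg4, the scaffold PSD-95, had 16360 to 22246 normalized counts over the 13 libraries, rho 0.890 (exact permutation test, adjusted p = 0.0253) and a slope of 0.53 (SE 0.12, DESeq2 adjusted p = 0.000225). The broader neuron list had 1 member higher and 2 lower of 13, with Eno2, a neuronal glycolytic enzyme, at rho 0.786 (exact permutation test, adjusted p = 0.0681) and the vesicle proteins Syt1 and Snap25 at -0.758 and -0.681 (exact permutation test, adjusted p of 0.0810 and 0.122).

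Region markers split in direction. Of 7 CA1 genes, 3 were higher and 0 lower, with a median rho of 0.48. Fibcd1, a marker of dorsal CA1, had 3900 to 8767 normalized counts in APP control, 2623 to 5344 in APP anti-miR-mix and 4240 to 11293 in WT control. Its rho was 0.769 (exact permutation test, adjusted p = 0.0754) and its slope 1.38 (SE 0.28, DESeq2 adjusted p = 5.88e-05), the only slope called among the 7. Mpped1 and Ccn3, the most abundant of the 7, had rho 0.264 and 0.478, with -0.286 and -0.214 within APP anti-miR-mix. Of 5 genes listed for cortex, 1 was higher and 3 were lower, with a median rho of -0.59. Tbr1, a transcription factor of cortical projection neurons, had 1217 to 2240 in APP control and 1469 to 2323 in APP anti-miR-mix. Its rho was -0.830 (exact permutation test, adjusted p = 0.0506), its r -0.856 (permutation test p = 0.00017) and its slope -1.14 (SE 0.16, DESeq2 adjusted p = 7.22e-09). Fezf2, of deep cortical layers, was the member that was higher, at rho 0.659 (exact permutation test, adjusted p = 0.131).

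Genes listed for other regions outside the hippocampus were mixed. Of 5 thalamus genes 0 were higher and 2 lower, and of 6 striatum genes 1 was higher and 2 were lower, with median rho of -0.43 and -0.22. Of the striatum genes 3 had rho above 0. Ppp1r1b, the phosphatase inhibitor DARPP-32 and the most abundant of them, had rho 0.654 (exact permutation test, adjusted p = 0.135), and Rgs9, a regulator of G protein signalling, had 0.225 (exact permutation test, adjusted p = 0.662). Drd1, the D1 dopamine receptor, had 122 to 256 normalized counts in APP control and 128 to 369 in APP anti-miR-mix, with rho -0.830 (exact permutation test, adjusted p = 0.0506). Dentate gyrus genes had 0 of 9 members past the unadjusted threshold in either direction. The part of the dissected region in the Thy1 order was not tested.

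The scores of the excitatory synapse and cortex lists had rho with Thy1 of 0.714 and -0.714 in APP control and 0.964 and -0.893 in APP anti-miR-mix. Other lists had values of similar size, among them heat shock and ER stress (0.714 and 0.964) and thalamus (-0.943 and -0.679). These are untested descriptions of lists chosen with earlier results known. With the adjustment number the excitatory synapse and cortex scores had rho -0.370 and 0.387 over the 13 libraries. Gene by gene, the excitatory synapse list had a median rho of -0.52 with the number, against 0.68 with Thy1, and 1 of its 12 genes was higher and 4 were lower with a higher number after adjustment. Dlg4 had rho -0.834 with the number (exact permutation test, adjusted p = 0.00963). With the number as a factor, 0 of the 12 had an unadjusted DESeq2 p under 0.05 for the slope. Over all genes 589 of 19416 did, so 12 genes are too few to differ visibly from that share. In WT control the score of the excitatory synapse list had rho 0.638 with the number, opposite in sign to the transgenic libraries.

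Most ribosomal protein genes were higher with higher Thy1, by small amounts. Of 20 cytosolic ribosome genes, 16 were higher and 1 was lower, with a median rho of 0.67, and 2 passed after adjustment. The score of the list had rho 0.771 within APP control and 0.250 within APP anti-miR-mix, with list medians of 0.83 and 0.32, and the difference between the groups was not tested. Rps19, a small-subunit protein, had 814, 1001 and 1088 normalized counts as lowest, median and highest in APP control and 860, 989 and 1027 in APP anti-miR-mix. Its rho was 0.879 (exact permutation test, adjusted p = 0.0310) and r was 0.935 (permutation test p = 2e-05), or 0.890 without the 2 farthest libraries. Rps9, another small-subunit protein, had rho 0.863 (exact permutation test, adjusted p = 0.0390) and a slope of 0.52 (SE 0.12, DESeq2 adjusted p = 0.000360). Ribosomal protein genes have many processed pseudogenes, and reads of 50 nt can be split among such copies, so these counts are uncertain.

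Y-linked genes and Xist moved the other way. All 5 sex-linked genes were lower with higher Thy1 at unadjusted p under 0.05, with a median rho of -0.65, and 0 passed after adjustment. Ddx3y, a Y-linked RNA helicase, had rho -0.648 (exact permutation test, adjusted p = 0.137), and Eif2s3y, a Y-linked translation factor, had -0.731 (exact permutation test, adjusted p = 0.0953). The 4 libraries with the number 4 had 2185 to 2259 normalized counts of Eif2s3y and the other 9 had 1176 to 1984. With the median of 20 bins of transcript GC removed in each library, rho of Eif2s3y was 0.104, whereas Nrgn stayed at 0.973. The list medians were then -0.35 for sex-linked and 0.52 for excitatory synapse genes, against -0.65 and 0.68 before. Nrgn does not stand for its list, since Camk2a and Slc17a7 had rho 0.462 and 0.418 in that setting. The 8 mitochondrial genome genes tested had a median rho of -0.39 and 0 past the unadjusted threshold.

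For these lists the WT control libraries, which the order did not use, gave values for the adjustment number. The cytosolic ribosome score had rho -0.986 with the number over the 6 WT control libraries and -0.712 over the 13 transgenic ones. For the sex-linked score the values were 0.754 and 0.914, and for the mitochondrial genome score 0.754 and 0.840. The Thy1 count itself had rho -0.493 with the number in WT control (exact permutation test p = 0.333).

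**Figure D3:**
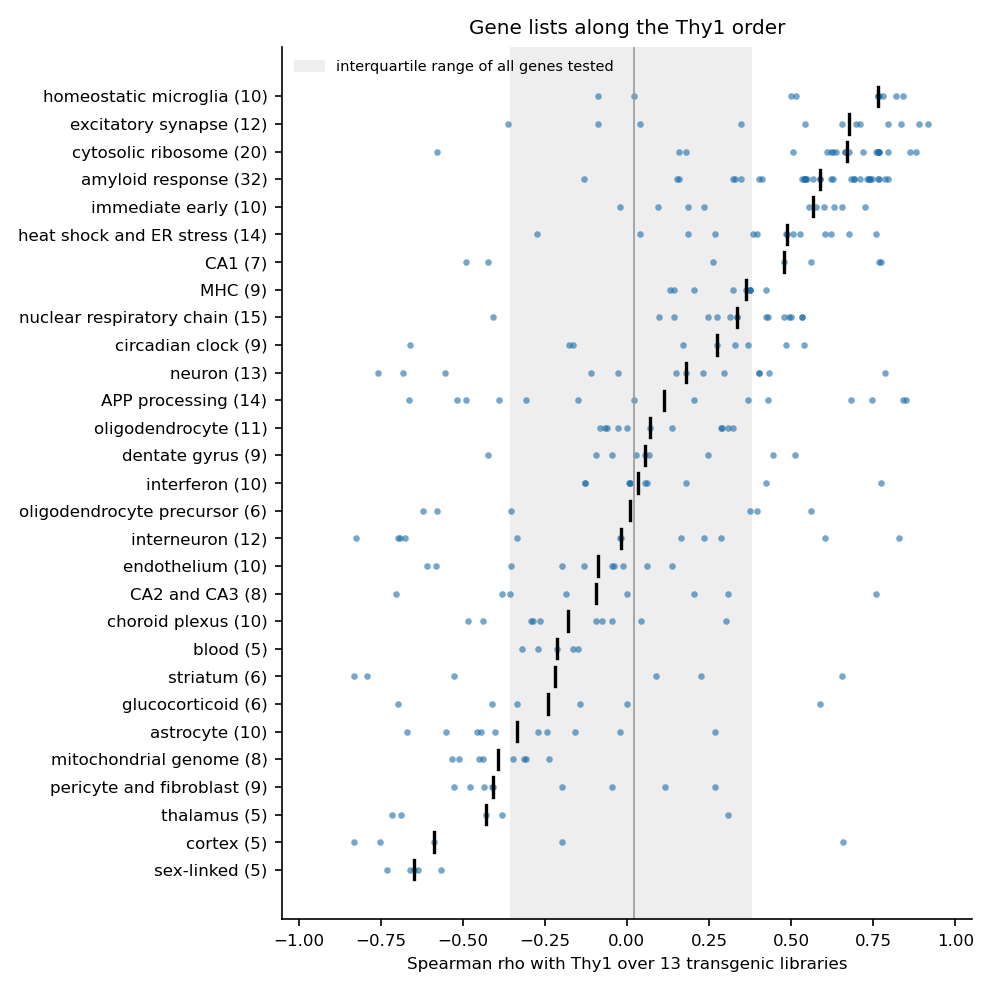
Spearman rho with Thy1 over the 13 transgenic libraries for each tested member (points) of 29 gene lists, with list medians as black bars, the median of all genes as a line and their interquartile range in grey. Homeostatic microglia (0.76), excitatory synapse (0.68) and cytosolic ribosome (0.67) genes have the highest medians and sex-linked genes (-0.65) the lowest.

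Of the remaining lists, immediate early genes had 5 members higher and 0 lower of 10, with a median rho of 0.57. The median was 0.23 within APP control and 0.73 within APP anti-miR-mix, and the difference between the groups was not tested. Nr4a1, an activity-induced nuclear receptor, had rho 0.725 (exact permutation test, adjusted p = 0.0983). Heat shock and ER stress genes had 4 higher and 0 lower of 14. Calr, an ER chaperone, had rho 0.758 (exact permutation test, adjusted p = 0.0810). Oligodendrocyte, blood, choroid plexus, pericyte and fibroblast, and nuclear respiratory chain genes had 0 members past the unadjusted threshold in either direction. Interneuron genes went both ways, with 2 higher and 4 lower of 12. Npy, a neuropeptide, had rho 0.830 (exact permutation test, adjusted p = 0.0506) and Gad1, which makes GABA, had -0.824 (exact permutation test, adjusted p = 0.0521). Endothelium genes had 0 higher and 2 lower of 10. The circadian clock list had 0 higher and 1 lower of 9, the glucocorticoid list 1 and 1 of 6, the CA2 and CA3 list 1 and 1 of 8, and oligodendrocyte precursors 1 and 2 of 6.

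The 10 genes with the highest rho among those with a mean of at least 100 normalized counts had rho of 0.923 to 0.967, with exact permutation test adjusted p of 0.0145 to 0.0190. Riox1, a nucleolar hydroxylase of ribosomal proteins, had the highest. It had 276, 318 and 393 normalized counts as lowest, median and highest in APP control and 279, 301 and 315 in APP anti-miR-mix, with r = 0.845 (permutation test p = 0.00047), or 0.900 without the 2 farthest libraries. Bhlhe40, an activity- and clock-related transcription repressor, had rho 0.951, and Phc2, a Polycomb subunit, had 0.929. Prrt1, an AMPA receptor-associated protein, Ephb3, an ephrin receptor, Mical2, an actin oxidase, Dtnbp1 (dysbindin), Cndp2, a dipeptidase, Sh3bgrl3 and Hebp1 were the others. Their slopes ran from 0.48 for Phc2 to 1.07 for Hebp1 on the log2 scale per doubling of Thy1. Once GC bins were removed, a setting chosen after seeing the data, the 10 rho values ran from 0.577 for Riox1 to 0.962 for Bhlhe40. The exact permutation test adjusted p in that setting was 0.241 for Riox1 and 0.00518 for Bhlhe40.

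The 10 genes with the lowest rho lay between -0.956 and -0.923, with exact permutation test adjusted p of 0.0181 to 0.0190. Npy1r, a receptor of neuropeptide Y, was the lowest, at 668, 788 and 990 normalized counts in APP control and 795, 856 and 1072 in APP anti-miR-mix. Its r was -0.877 (permutation test p = 9e-05), or -0.944 without the 2 farthest libraries. All 4 libraries with the number 4 had more Npy1r than the other 9, at 906 to 1072 against 668 to 881. Those 4 are also the lowest in Thy1, so a gene chosen for so strong a rho separates them almost by selection. Ptger3, a prostaglandin E2 receptor, had rho -0.945 and a slope of -1.43 (SE 0.36, DESeq2 adjusted p = 0.00180), and Prkar2b, a regulatory subunit of protein kinase A, had rho -0.940 and a slope of -1.35 (SE 0.19, adjusted p = 7.57e-09). Sesn3, Bend6, Dzank1, Zik1, Impact, Pank1 and Jade1 were the others. Once GC bins were removed, rho was -0.401 for Zik1 and -0.478 for Impact (exact permutation test, adjusted p of 0.464 and 0.355). The rest of the 10 then had rho from -0.962 for Ptger3 to -0.846 for Dzank1. With the adjustment number as a factor, 3 of the 10 highest and 5 of the 10 lowest genes had an unadjusted DESeq2 p under 0.05 for the slope. Over all 19416 genes, 256 were higher and 333 lower in that fit. Both ends were chosen by their rho with Thy1 in the same libraries, so an excess over that share is built in.

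Both ends of the order differed in base composition. The longest annotated transcripts of the 10 highest genes had a median GC content of 56.3% (49.4% to 62.5%) and those of the 10 lowest 45.2% (40.5% to 47.2%). The first 60 coding bases of the highest and the lowest gene are shown as an example of each end, from GENCODE M21 transcripts on GRCm38, sense strand, with G and C in capitals. The stretch of Riox1 lies in its coding exon at chr12:83950692-83950751 on the plus strand and holds 43 G or C, and that of Npy1r lies in a coding exon at chr8:66703930-66703989 on the plus strand and holds 23. Such short stretches do not follow the order throughout, since among the lowest genes those of Prkar2b and Ptger3 hold 40 and 35 G or C, and among the highest those of Bhlhe40 and Prrt1 hold 39 and 35.
Riox1: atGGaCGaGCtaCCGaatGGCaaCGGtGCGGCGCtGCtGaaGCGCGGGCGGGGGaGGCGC
Npy1r: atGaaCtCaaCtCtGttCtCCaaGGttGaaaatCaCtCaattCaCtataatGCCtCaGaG

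The same held across the table. The genes were split by transcript GC into 5 equally large groups. Of the group with the lowest GC (22.1% to 43.7%), 1.34% were higher and 33.9% lower with Thy1 at unadjusted p under 0.05. Of the group with the highest GC (55.2% to 76.3%), 25.1% were higher and 2.48% lower. Across 19354 genes, rho with Thy1 and GC content had a Spearman correlation of 0.523, and rho and transcript length one of -0.157, which describes genes measured in the same libraries and not independent replicates. In WT control, the median rho with the adjustment number fell from 0.638 in the group of lowest GC to -0.493 in that of highest GC, and in the 13 transgenic libraries from 0.623 to -0.450. With the GC bins removed, an alternative chosen after seeing the data, the rank test called 27 genes higher and 42 lower after adjustment. The part of GC content in the relation of single genes to Thy1 was not tested further.

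**Figure D4:**
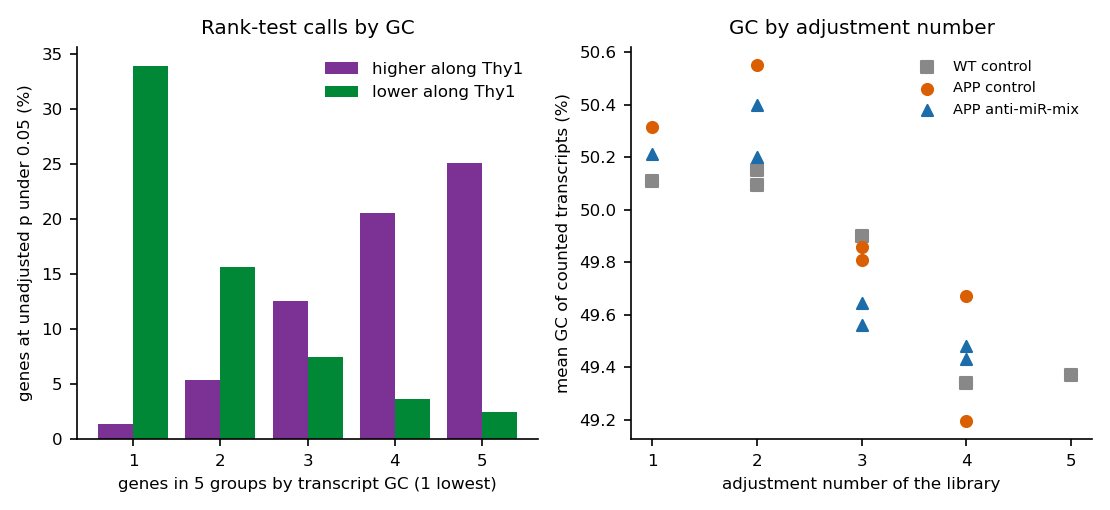
Left, percent of genes at unadjusted p under 0.05 that were higher or lower with Thy1, in 5 equally large groups of genes by transcript GC, where lower calls fall from 33.9% to 2.48% and higher calls rise from 1.34% to 25.1%. Right, mean GC of counted transcripts (%) against the adjustment number for all 19 libraries, with transgenic values from 49.2% to 50.6%.

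The group was checked in the same data. With group means removed, 217 genes rose and 197 fell with Thy1 after adjustment. A slope that differed between APP control and APP anti-miR-mix was called by DESeq2 for 17 genes, 16 of them steeper upward in APP anti-miR-mix, while edgeR called 0 at adjusted p under 0.05 and 770 at unadjusted p. Across 19416 genes, the rho values within APP control and within APP anti-miR-mix, which share no library, had a Spearman correlation of 0.367, again a description across genes. The adjustment number fell with Thy1 in both groups (rho -0.883 and -0.514), so this value cannot tell Thy1 and the number apart.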

How the data were processed

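Raw read counts per gene were deposited for 19 libraries. Per the labels and the submitters' processing notes the authors used FastQC 0.11.5, STAR 2.5.2b and featureCounts (Subread 1.5.1) on mm10, from 50 nt single-end TruSeq v2 reads, a kit that does not mark strand. The deposited log2 table was used only as an alternative and to recover the adjustment number: 99.9998% of the variance of its difference from log2(CPM + 1), pseudocount 1, lay on 1 profile. The members and gene lists were chosen with earlier results of these data known.

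Symbols, positions and transcript GC came from GENCODE M21 (GRCm38), which matched 48349 of 48709 identifiers. Counts were divided by median-of-ratios size factors of all 19 libraries. Genes with at least 5 counts in 50% of the 13 libraries were related to Thy1, itself left out of the genes tested, by the exact two-sided permutation distribution of Spearman's rho with Benjamini-Hochberg adjustment. DESeq2 (1.42.0) and edgeR (4.0.16) fitted slopes on centred log2 Thy1 with group. Pearson r and measures per library used two-sided permutation tests with 100000 resamples. Rank tests on values with group, number or GC bin means removed treat those means as known. Named genes were the APP processing genes, the 10 highest and 10 lowest rho at a mean of at least 100 normalized counts, 4 members per list by size of rho and by abundance, and genes within 250 kb of Thy1, some of which are not reported here. Of these 140 genes, 17 share over 10% of their exonic positions with another gene, Riox1, Sh3bgrl3, Csf1r, Bace1, Rnf26 and Nlrx1 among them, and their reads cannot be told apart. No 2 libraries of a group were alike within sampling noise (smallest chi-square per gene 4.94), which covers counting error only. The scripts were tested on simulated data (R 4.3.3, Python 3.11.15, numpy 2.4.6, scipy 1.17.1, pandas 2.3.3).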

Additional observations from a re-analysis of the deposited data

Results flagged for a closer look

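Among 78 comparisons of a measure or list score within a group, 5 had a library whose distance from the nearest other library took an unusually large part of the group's range, where chance gives about 1 in 20. The number expected by chance was 3.9, so 5 is close to it. In APP anti-miR-mix 4 the cortex score was 10.2 on the log2 scale, against 10.4 to 10.6 in the other 6. In APP control 5 the oligodendrocyte precursor score was 9.59 against 9.73 to 9.76, and the glucocorticoid score was 11 against 9.91 at most. In APP anti-miR-mix 6 the choroid plexus score was 6.56 against 5.34 to 5.77, and in APP anti-miR-mix 7 the glucocorticoid score was 9.71 against 9.90 at least.

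Slopes on Thy1 that differed between APP control and APP anti-miR-mix were called by DESeq2 for 17 genes. Rgs14, a signalling regulator of CA2 neurons, had a slope steeper by 1.79 on the log2 scale per doubling of Thy1 in APP anti-miR-mix (SE 0.43, adjusted p = 0.0398), with within-group rho of 0.714 (APP control) and 0.821 (APP anti-miR-mix). Bhlhe40 had a slope steeper by 1.16 (SE 0.29, adjusted p = 0.0466), with rho of 0.943 and 1 in the same groups. The edgeR test of the same difference called 0 genes.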

How the results depend on the processing

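The 274 genes called by the rank test after adjustment became 773 with TMM, 1496 with size factors from the 13 libraries, 1646 with CPM, 95 with no low-count filter, 2250 with Pearson correlation, 414 with group means removed, 28 with the adjustment number removed as a linear term, 2 with the means of each number removed, 69 with GC bins removed, 2 with the deposited log2 table, 0 with the order by App, 4206 with the order by the number, 0 within APP control and within APP anti-miR-mix alone, 0 without the 2 farthest libraries and 36 without APP control 5 and 6. At least 10 counts in every library gave 362. Leaving out 1 library gave 0 to 766: 0, 46, 641 and 766 without APP anti-miR-mix 7, 6, 2 and 1, and 27, 65, 66, 163 and 167 without APP control 2, 6, 1, 4 and 3. With no low-count filter more genes are tested, and within 1 group fewer libraries are. In the other settings the cause was not tested. The 4960 genes at unadjusted p became 1359 and 1459 in each group alone, 2566 and 2917 with the number removed as a linear term and as means, 1654 in the order by App, 2441 with the deposited table, 2461 without the 2 farthest libraries, 2672 without APP control 5 and 6, and 3090 to 5617 without 1 library.

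The 3748 genes of the DESeq2 slope became 100 with the number as a linear term, 0 with it as a factor (589 at unadjusted p), 219 with log2 Xist as a term, 1 with App in place of Thy1, 897 without the 2 farthest libraries, 511 without APP control 5 and 6, 1321 with GC bins removed, and 1056 to 4256 without 1 library, where APP control 6 (1056) and APP control 2 (2454) moved it most. The 17 differences between groups became 0 in edgeR (770 at unadjusted p) and 0 to 97 without 1 library, with 97, 38, 1 and 0 without APP anti-miR-mix 6, 2, 1 and each of 3, 4, 5 and 7, and 39, 33, 11, 3 and 1 without APP control 1, 6, 3, 4 and 2. Same-numbered libraries of both groups had correlations of -0.1 to 0.337 in their deviations from the group means, so the numbers were not taken as pairs. With the replicate block the slope gave 0 genes (369 at unadjusted p) and the difference between groups 0 (126 at unadjusted p).

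The list medians that turned sign were MHC (-0.0286) and circadian clock (-0.0857) in APP control alone, glucocorticoid (0.446) in APP anti-miR-mix alone, choroid plexus (0.00549) and mitochondrial genome (0.258) with the number removed as a linear term, choroid plexus (0.225), heat shock and ER stress (-0.022) and circadian clock (-0.236) with the means of each number removed, and circadian clock (-0.121) with GC bins removed. Among named genes, rho turned for Snap25 (0.516) and Eif2s3y (0.104) with GC bins removed, Sst (-0.286) in APP anti-miR-mix alone, Slco1a4 (0.148) with the number removed as a linear term, and Pdgfra (0.104), Slco1a4 (0.121) and Abcb1a (0.00549) with its means removed. Settings that remove means of each number, remove GC bins, use the number as an order or a factor, or leave out APP control 5 and 6 were chosen after seeing the data, as were the block and single-library settings of the difference between groups.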
